A study of Mus musculus with 4 samples.

Results

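Gbx2- or Kitl-positive, Tcf7l2-positive neurons were examined in single-cell RNA-sequencing data of the arcuate nucleus (ARC) of the hypothalamus from embryonic day 15 (E15) mice of strain C57BL/6 and genotype Pomc-eGfp, all of 1 genotype and with no treatment or comparison group. The reporter served to find the tissue: GFP-positive parts of the ventral hypothalamus of several embryos were dissected, pooled and made into 1 library, of which the 4 deposited samples are sequencing runs. Expression was read as unique molecular identifiers (UMIs), barcodes by which copies of 1 captured molecule are counted once. Members were chosen by measured UMIs: they had at least 1 UMI of Gbx2 and Kitl together, at least 2 of Tcf7l2 and of the neuronal gene Stmn2, and none of Robo3 or Nkx2-1. They numbered 324 of 6351 kept cells (5.10%, Clopper-Pearson 95% interval 4.57% to 5.67%), or 8.09% (7.26% to 8.98%) of the 4006 cells with at least 2 Stmn2 UMIs, called neurons from here on. The other 3682 neurons served as comparison. With 1 library the design allows no test between sets of cells, so values are given as levels, shares and ratios, and every interval covers counting error only.

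The thalamus and the habenula lie dorsal to the hypothalamus and are formed from the diencephalon. Gbx2 encodes a homeodomain factor that marks thalamic neurons soon after they leave the cell cycle, Tcf7l2 a TCF/LEF factor of Wnt signalling that stays on in thalamic and habenular neurons, and Lhx9 a LIM-homeodomain factor of the same region. Kitl encodes the ligand of the receptor tyrosine kinase Kit. Pou4f1 and Nr4a2 encode transcription factors of medial habenular neurons, Robo3 a guidance receptor of habenular and commissural neurons, and Nkx2-1 a homeodomain factor that marks the ventral hypothalamus.

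The members fell into cells of unlike content, and a single thalamus-like name did not describe them all. Of the 324, 89 had a Gbx2 UMI (27.5%, 22.7% to 32.7%) and 235 had Kitl without Gbx2 (72.5%), and only 13 members had UMIs of both genes. The Gbx2-positive members carried the thalamic genes Lhx9 in 92.1% and Foxp2 in 84.3% of cells, with Pou4f1 in 5.62%. The Kitl-only members carried Pou4f1 in 68.5% and Nr4a2 in 46.0%, with Lhx2 in 11.1% and Foxp2 in 47 of 235, but Lhx9 was in 60.9% of them as well. They are called Gbx2-positive and Kitl-only members below, a split chosen after these values were seen.

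Cells close to the Tcf7l2 and Robo3 limits of the gate mostly had Kitl without Gbx2. Of the members, 113 had exactly 1 UMI of Gbx2 and Kitl together, 82 had 2 and 129 had 3 or more, while 557 neurons met every other limit and had neither gene. At the Tcf7l2 limit, 34 members had 2 UMIs, all of them Kitl-only, and 51 cells were outside with 1 UMI and 85 with 0. Of those 136 cells with too little Tcf7l2, 2 had Gbx2. Robo3 alone kept out 47 cells, 38 of them with a single UMI and 46 of them Kitl-only, and Nkx2-1 alone kept out 28, with median depths of 5646 UMIs at 1 Nkx2-1 UMI and 6736 at 2 or more, against 3899.5 in the members. At the Stmn2 limit, 12 members had 2 UMIs and 20 cells were outside with 1. The gate held 90.8% of the 98 neurons with Gbx2 but 50.8% of the 488 with Kitl.

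Gate genes are described by level only, since they chose the cells, in CPM, the UMIs of a gene over all UMIs of the pooled cells, scaled to a common total. Gbx2 (chr1:89927956-89931179, mm10) reached 592 CPM in the Gbx2-positive members, with 1 to 8 UMIs per cell and a median of 2, and 1.14 CPM in the other neurons. Kitl (chr10:100015630-100100416) reached 605 CPM in the Kitl-only members, with 1 to 11 UMIs per cell and a median of 2, 46.5 CPM in the Gbx2-positive ones and 48.2 CPM in the other neurons. Kitl had UMIs in 6.52% of the other neurons and in 6.60% of 197 cells that carried vessel or fibroblast markers in place of neuronal ones (median depth 3861 UMIs). Shares in these cells are given below beside those of neuronal genes. Such cells can make Kitl, and whether they make the other genes was not tested, so their shares are no sure measure of background. Its receptor gene Kit was in 1.23% of members and 2.58% of the other neurons, both below the 4.57% of those cells.

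Tcf7l2 (chr19:55741820-55933654) varied widely among the members above the limit of the gate. The Gbx2-positive members held 7 to 75 Tcf7l2 UMIs per cell with a median of 24, and the Kitl-only members held 2 to 47 with a median of 6. No Gbx2-positive member was below 7 UMIs, although the gate admitted cells from 2, while 116 of the 235 Kitl-only members (49.4%) also had 7 or more, and 95 of the 98 Gbx2-positive neurons of the whole library had 7 or more. Pooled levels were 6926 CPM (Poisson 95% interval 6642 to 7219) and 1820 CPM (1741 to 1903). After each cell was thinned to 2167 UMIs, 80.2% of the Gbx2-positive members (70.2% to 88.0%) and 8.33% of the Kitl-only ones (5.09% to 12.7%) still had 10 or more Tcf7l2 UMIs. Within the Gbx2-positive members the 13 with Kitl were at 7990 CPM and the 76 without at 6755 CPM. The 366 Robo3-positive neurons, which were not chosen on Tcf7l2, stood at 1830.2 CPM.

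**Figure D1:**
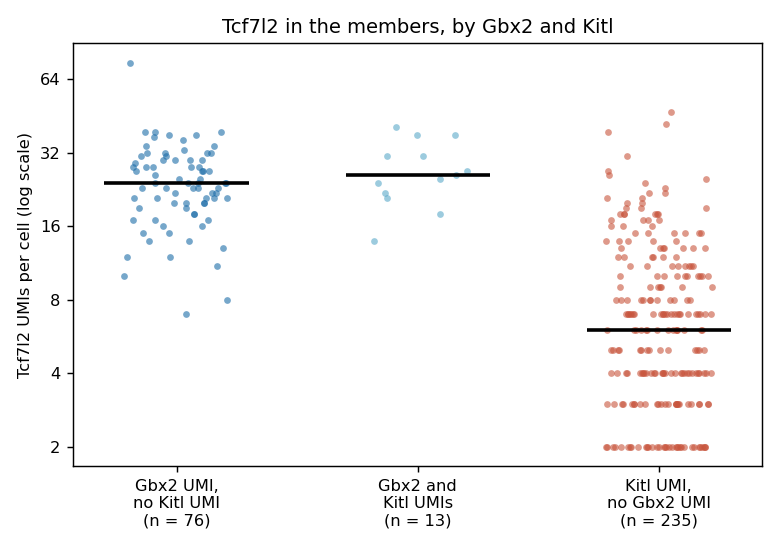
Tcf7l2 UMIs per cell on a log axis in members with Gbx2 only, with both genes and with Kitl only; each point is 1 cell and the bar is the median. Medians of 24, 26 and 6 show that all cells with Gbx2 lie at 7 or above while the Kitl-only cells start at the gate's limit of 2.

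Whether Gbx2 and Kitl met in the same cell was asked in the 881 neurons that passed the Tcf7l2, Robo3 and Nkx2-1 limits, so that the choice on Gbx2 and Kitl did not enter. Both were found in 13 cells against 25.1 expected from the product of their shares, a ratio of 0.52 (0.28 to 0.89). At equal depth the ratio was 0.56, and its interval of 0.24 to 1.10 reached 1. Gbx2 met Foxp2 in 75 cells against 28.5 expected and Lhx2 in 61 against 20.8, but Pou4f1 in 5 against 45.5. Kitl met Pou4f1 in 162 against 127 expected, but at equal depth in 97 against 79.5, with an interval of the ratio (0.99 to 1.49) that reached 1. On raw counts Kitl met Nefl, a neurofilament subunit, in 151 against 89.0, but Lhx2 in 29 against 58.0.

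The stretches just upstream of the gate genes were read for the TCF/LEF core that TCF7L2 binds, because Tcf7l2 is one of the genes that define the members. They are printed for the RefSeq starts of Gbx2, Kitl and the first start of Tcf7l2, then for 3 of the genes described below whose 250-base upstream window holds the motif, in the strand of the gene. Capitals mark the motif CTTTGAT or its reverse complement. Positions are on GRCm38.p6, the assembly called mm10: chr1:89931177-89931256 (minus strand), chr10:100015741-100015820 (plus), chr19:55741730-55741809 (plus), chr9:117630084-117630163 (minus), chr12:77409997-77410076 (plus) and chr9:58204430-58204509 (minus).
Gbx2: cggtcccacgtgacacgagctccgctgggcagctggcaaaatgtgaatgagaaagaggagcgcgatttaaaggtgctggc
Kitl: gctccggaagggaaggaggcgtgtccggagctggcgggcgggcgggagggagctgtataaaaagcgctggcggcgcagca
Tcf7l2: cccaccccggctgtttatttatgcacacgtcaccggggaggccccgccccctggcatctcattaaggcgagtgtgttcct
Rbms3: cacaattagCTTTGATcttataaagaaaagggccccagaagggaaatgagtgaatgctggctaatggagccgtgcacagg
Fut8: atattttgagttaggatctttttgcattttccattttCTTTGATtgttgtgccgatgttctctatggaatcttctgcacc
Islr2: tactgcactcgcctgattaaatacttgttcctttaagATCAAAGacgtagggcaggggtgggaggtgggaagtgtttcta
The motif, searched on both strands, was in the window of 1 of 19 matched genes leading the members, 1 of 10 leading the Gbx2-positive and 1 of 10 leading the Kitl-only members, and of 3.72% of all 27025 genes in the table (3.21% of 32851 promoters). The homeodomain core TAATTA was in 1 of those 19 genes, Mgat4c, in none of either 10, and in 5.65% of all genes. None of Gbx2, Kitl, Tcf7l2 and Lhx9 held either motif, which says only that these letters are not in these windows.

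Compared with the other neurons, the pooled members were richest in Neurog2, a proneural bHLH factor, at 44.4 against 2.99 CPM (log2 ratio 3.89, conditional exact binomial 95% interval 3.30 to 4.49), and in Pdzrn3, at 37.9 against 3.77 CPM (3.33, 2.75 to 3.91). Only 41 of 324 members had a Neurog2 UMI, 30 of them with Gbx2, and Pdzrn3 too was mainly in the Gbx2-positive members, as given below. Next came Evc2 of the cilium (2.86), the homeodomain gene Shox2 (2.74), the prokineticin receptor Prokr2 (2.69), the kinesin-like Kif26b (2.68), the muscarinic receptor Chrm3 (2.53) and the synuclein Sncg (2.44). The remaining leading genes lay between 2.41 (Mgat4c) and 1.98 (Fgf15, a secreted growth factor) and included Nkd1, a feedback inhibitor of Wnt signalling, Dmrtb1, Cdh8, Lhx2, Plxna2 and Rbms3. Some of these ratios moved with the setting: Chrm3 was at 1.43 and Sncg at 1.60 with the gate set on thinned counts, Pdzrn3 at 2.54 with at least 2 UMIs of Gbx2 and Kitl, and Neurog2 at 2.67, Pdzrn3 at 1.82, Nkd1 at 1.41 and Sncg at 3.08 against all other kept cells. Neurog2 was at 3.14 against other neurons without Robo3 or Nkx2-1, and Kif26b at 3.35 on thinned counts. Of 5412 genes that could be compared, 133 (2.46%) were over 2-fold higher and 66 (1.22%) over 2-fold lower, with a median log2 ratio of 0.03. Here and below, genes were compared with at least 20 UMIs over both sets and a UMI in at least 10% of cells of either set, gate genes left out. A gene could thus enter through 1 set alone. The leading genes had to meet both minima on the higher side.

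Genes of the hypothalamus and of the lists of neighbouring regions were among the lowest. Sox14, a SoxB2 factor of the rostral thalamic GABA neuron list, had UMIs in 0.617% of members and 17.8% of the other neurons, and Tbx3, which marks ARC neurons, in 0.617% and 13.0%. Otp, a homeodomain factor of neuroendocrine neurons, was at 14.3 against 185 CPM (log2 ratio -3.69, -4.41 to -3.06), and Isl1 of the prethalamic list at 17.2 against 221 CPM (-3.69). Without the Robo3 and Nkx2-1 limits of the gate these ratios were smaller, at -2.65 for Otp, -2.40 for Isl1, -3.18 for Tbx3 (from -5.11) and -3.19 for Sox14 (from -5.89). Pomc, the melanocortin precursor gene, was at 42.2 against 376 CPM (-3.16, -3.55 to -2.79), and its share of 14.2% of members was no higher than the 14.7% of the vessel- or fibroblast-marked cells, which should lack it. All 4 arcuate and ventromedial hypothalamic markers that could be compared were over 2-fold lower, beside 1.22% of all genes, with a list median of -3.42, whereas the gate removed Nkx2-1 itself. At least 5 UMIs of that list, here with Nkx2-1 counted, were found in 6 of 324 members (1.85%) and in 32.8% of the other neurons. The gate kept Nkx2-1 out of every member, while the other neurons include the 1244 Nkx2-1-positive ones. These shares are therefore not free of the gate, and its part in their gap was not tested.

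**Figure D2:**
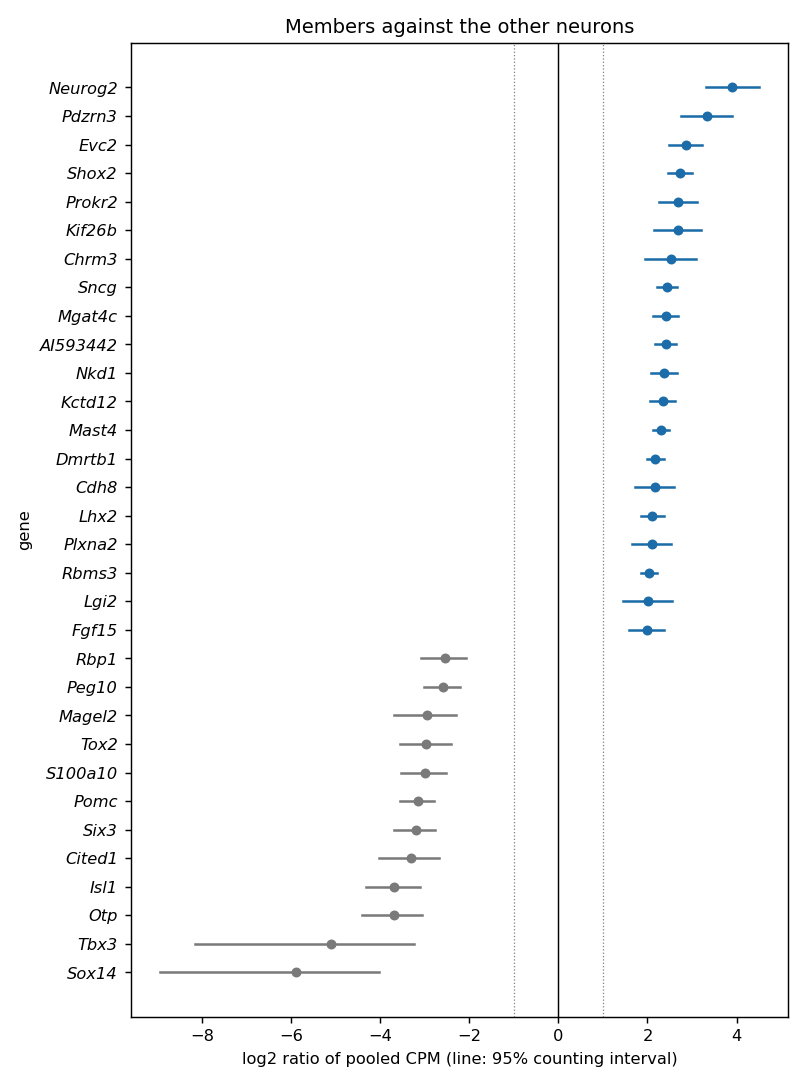
Log2 ratio of pooled CPM, members over other neurons, for the 20 genes highest and the 12 lowest; points are ratios, lines 95% counting intervals, and dotted lines 2-fold. Ratios run from 3.89 for Neurog2 to -5.89 for Sox14, and no line crosses 0.

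Thalamic genes outside the gate were only partly raised over all members. Of 11 on the list, 8 could be compared and 5 were over 2-fold higher, with a median log2 ratio of 1.39: Lhx9, Lhx2, Ntng1, Foxp2 and Calb2. Over all genes compared, 2.46% were over 2-fold higher. With at least 2 UMIs of Gbx2 and Kitl asked, Foxp2 was at 0.99 (0.77 to 1.21). Against the 557 neurons that lacked only Gbx2 and Kitl, Ntng1 and Calb2 were over 2-fold higher and Lef1 lower, out of 7 compared. Lhx9 (chr1:138825186-138848577) had a UMI in 69.4% of members (64.1% to 74.4%) and 22.6% of the other neurons, at 494 and 177 CPM, and in 3.55% of the vessel- or fibroblast-marked cells. Prox1 (log2 ratio -0.58) and Lef1 (-0.27) were not higher in the members, and Slc6a4, the serotonin transporter that thalamic neurons carry for a time, was seen in 0 of 324, a limit of 0.926% of cells when 3 counts are taken in place of 0. Habenular genes were higher as well: Pou4f1 at 610 against 286 CPM (1.09, 0.98 to 1.20) and Nr4a2 at 284 against 132 CPM (1.10, 0.94 to 1.26), 2 of the 3 on that list that could be compared, with Gng8 at 0.75. Both fell below 2-fold when the upper limit on genes per cell was dropped (0.93 and 0.96), and Nr4a2 was at 0.39 with the gate set on thinned counts.

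Patterning genes were among those higher in the members. Of 22 on that list compared, 11 were over 2-fold higher and 2 lower, with a median of 0.94, beside 2.46% higher and 1.22% lower over all genes. Against the 557 neurons that lacked only Gbx2 and Kitl, 2 of 25 were higher and 5 lower, with a median of -0.11. Zic1, a zinc finger factor of the dorsal midline and thalamus, had UMIs in 91.0% of members and 28.5% of the other neurons (1020 against 282 CPM, log2 ratio 1.86), and its neighbour Zic4 in 77.2% and 22.7% (1.80). Zic1 was in 95.5% of Gbx2-positive and 89.4% of Kitl-only members, against 31.0% of the vessel- or fibroblast-marked cells. Zfhx3 (1.24), Onecut2 (1.23), Ebf1 of the pretectal list (1.14) and Irx2 (1.10) were also higher, while Lmo1 was lower (-2.45). Ebf1 fell just below 2-fold with the gate set on thinned counts (0.98), and Irx2 did so in 4 settings, at 0.91 to 0.98.

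The transmitter genes of the members were mainly those of glutamate, at a summed 172 CPM against 31.5 CPM for those of GABA. Of 2 glutamate genes compared with the other neurons, 0 passed 2-fold. Slc17a6, the vesicular glutamate transporter VGLUT2, was at 96.7 against 54.9 CPM (log2 ratio 0.82, 0.54 to 1.08) and differed little between Gbx2-positive and Kitl-only members, at 99.2 and 95.9 CPM (0.05, -0.57 to 0.63). Slc32a1, the vesicular GABA transporter, was in 1.23% of members and 7.85% of the other neurons, and Gad1 in 0.617% and 5.49%. No member had a UMI of Slc17a7 or of the acetylcholine transporter Slc18a3, with the same limit of 0.926% of cells. On the receiving side, Gabra2 (144 against 54.4 CPM) and Gabbr1 (609 against 247 CPM) were over 2-fold higher and Gabra5 lower (25.1 against 50.2 CPM), out of 5 GABA receptor genes compared, and none of 7 glutamate receptor genes passed 2-fold. Over all genes compared, 2.46% were over 2-fold higher and 1.22% lower.

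Axon and adhesion genes gave mixed values, beside 2.46% of all genes compared over 2-fold higher and 1.22% lower. Of 15 guidance receptors compared, 5 were over 2-fold higher and none lower (median 0.69): the Eph receptors Epha3 (1.97), Epha4 (1.60) and Epha5 (1.47) and the plexins Plxna4 (1.32) and Plxna2, at 45.8 against 10.7 CPM. Of 7 guidance ligands compared, Ntng1, a netrin-G that labels thalamocortical axons, was over 2-fold higher (1.46) and the ephrins Efna5 (-1.39) and Efnb1 (-1.32) lower. Nefl (1.76) and Nefm (1.64), neurofilament subunits, were the 2 of 14 neuronal maturation genes over 2-fold higher, and Rbfox1, an RNA-binding factor, was lower (-1.39). Chl1 (1.64) and Cbln2, a secreted synapse organiser (1.64), followed. Cbln2 had UMIs in 78.4% of members and 24.2% of the other neurons.

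Comparison of the Gbx2-positive with the Kitl-only members asked which of these genes came from which cells. Of 5822 genes compared, 264 (4.53%) were over 2-fold higher in the Gbx2-positive members and 612 (10.5%) over 2-fold lower, with a median log2 ratio of -0.05. The Gbx2-positive members had a median of 3350 UMIs and the Kitl-only ones 4073, and their median mitochondrial shares were 3.72% and 4.14%. On thinned counts, with 3756 genes compared, 230 were higher and 316 lower.

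Thalamic genes lay on the Gbx2 side. Of the 8 that reached the minimum over all members, 7 were over 2-fold higher than in the Kitl-only members, beside 4.53% of all genes, and Slc17a6 was not. Lhx2, a LIM-homeodomain factor, had UMIs in 68.5% of Gbx2-positive (57.8% to 78.0%) and 11.1% of Kitl-only members (7.36% to 15.8%), at 452 and 31.7 CPM (log2 ratio 3.84, 3.29 to 4.42). Foxp2, a forkhead factor, was at 710 and 95.9 CPM (2.89, 2.55 to 3.24), and its 47 of 235 Kitl-only members made a share not above the 23.9% of the vessel- or fibroblast-marked cells. Lhx9 was at 923 and 365 CPM (1.34, 1.12 to 1.56), with 0 to 13 UMIs per cell and a median of 3 in the Gbx2-positive members, and 0 to 10 with a median of 1 in the Kitl-only ones. Prox1 (2.55), Ntng1 (2.29) and Lef1 (1.79) had the same sign, although Prox1 and Lef1 were not raised in the members as a whole. Rora (1.53) and Rorb (1.49) reached the minimum only through the Gbx2-positive side. Rora had UMIs in 12.4% and Rorb in 11.2% of the Gbx2-positive members, of which that of Rora was not above the 13.2% of the vessel- or fibroblast-marked cells.

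Other genes that led the Gbx2-positive members were not on the thalamic list. Pdzrn3 was in 40.4% of them and 0.851% of Kitl-only members (log2 ratio 6.41, 4.48 to 9.49). Sp9, a zinc finger factor otherwise known in the ventral forebrain, was in 34.8% and 1.28% (4.32, 3.15 to 5.72), Id4, an inhibitor of bHLH factors, in 70.8% and 17.0% (3.07), and Neurog2 in 33.7% and 4.68% (3.14). Nxph1 (3.57), the GABA-A subunit Gabra4 (3.47), Chst1 (3.37), Gas7 (3.27), the glycine receptor subunit Glra2 (3.26), the calcium-binding Calb1 (3.16) and Fut8 (3.14) followed. The Wnt feedback gene Nkd1 was at 291 against 56.8 CPM (2.36, 1.88 to 2.85).

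The Kitl-only members held the habenular and many further genes. Pou4f1, with 0 to 24 UMIs per cell and a median of 2, was at 784 CPM in them and 31.0 CPM in the Gbx2-positive members (log2 ratio -4.66, -5.73 to -3.78), and Nr4a2 at 362 and 21.7 CPM (-4.06), with UMIs in 16.2% of the vessel- or fibroblast-marked cells. Gng8, a G protein subunit of the habenula, was less divided, at 483 and 242 CPM (95% interval -1.36 to -0.65). Islr2 was in 74.9% and 4.49% of cells, Irx2 in 54.5% and 2.25%, the synuclein Sncg in 23.4% and 2.25%, and Sox1 in 44.3% and 2.25%. Kif26b had 0 UMIs in the Gbx2-positive members and 47.5 CPM in the Kitl-only ones, and with a limit of 3 counts over the group its log2 ratio was -2.35 or lower. Evc2, Mgat4c, Kctd12, Mast4 and Rbms3 of the genes leading all members belonged to this side, with log2 ratios of -5.02 (-10.3 to -2.51), -2.49, -3.50, -1.65 and -2.01. Kctd12 and Rbms3 were each also in 44.7% of the vessel- or fibroblast-marked cells, and vessel markers summed to 36.3 CPM in Kitl-only and 6.198 CPM in Gbx2-positive members, whose part in these ratios was not tested. Dmrtb1 (-0.08), Prokr2 (0.36) and Chrm3 (0.06) had intervals that held 0.

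**Figure D3:**
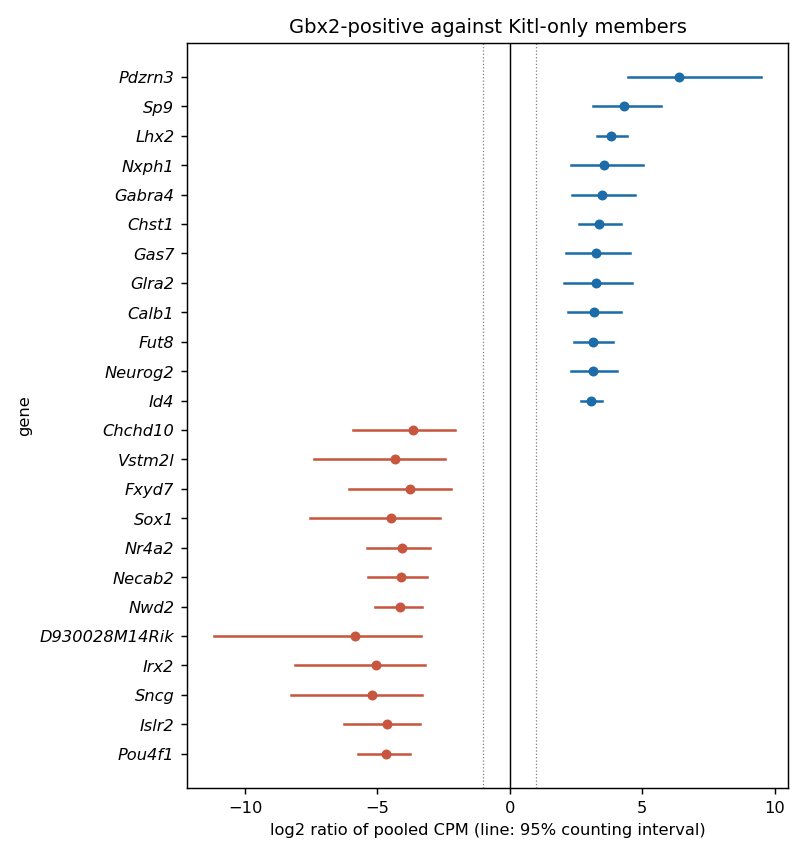
Log2 ratio of pooled CPM, Gbx2-positive over Kitl-only members, for the 12 genes highest and the 12 lowest; points are ratios, lines 95% counting intervals and dotted lines 2-fold. Lhx2 at 3.84 stands among the highest and Pou4f1 at -4.66 among the lowest, and no line reaches 0.

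Genes of the synapse and axon lay on both sides, where 10.5% of all genes compared were over 2-fold lower and 4.53% higher with Gbx2. Of 8 glutamate receptor genes compared, 5 were over 2-fold lower in the Gbx2-positive members and none higher, among them Gria1 at 18.6 against 137 CPM (log2 ratio -2.88, -4.35 to -1.72) and Grm5 (-4.10, -9.43 to -1.56), while the interval of Grin1 (-1.91, -5.03 to 0.09) held 0. Gria1, Grin1 and Grm5, which the 5 include, and Gabra4 and Gabra5 reached the minimum only through the set in which they were higher. Of 6 GABA receptor genes, Gabra4 was higher, and Gabra5 (-2.31, -5.41 to -0.34) and Gabbr1 (-2.43) were lower. Of 15 guidance receptors, Robo1 (1.25), Robo2 (2.32), Epha4 (1.78), Plxna2 (1.92) and Plxna4 (1.44) were higher, and Epha3 (-2.20, -4.53 to -0.57), Epha5 (-1.50), Ephb1 (-2.60), Plxna1 (-1.03) and Nrp1 (-1.97) lower. The maturation genes Syt1 (-2.19), Elavl4 (-1.40) and Nefl (-1.56) were lower and none of 13 higher. Nefl was at 359 CPM in the 13 members with both genes, 89.9 CPM in the 76 with Gbx2 only and 374 CPM in the Kitl-only members, and with a Kitl UMI asked of both sets its log2 ratio was -0.06.

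**Figure D4:**
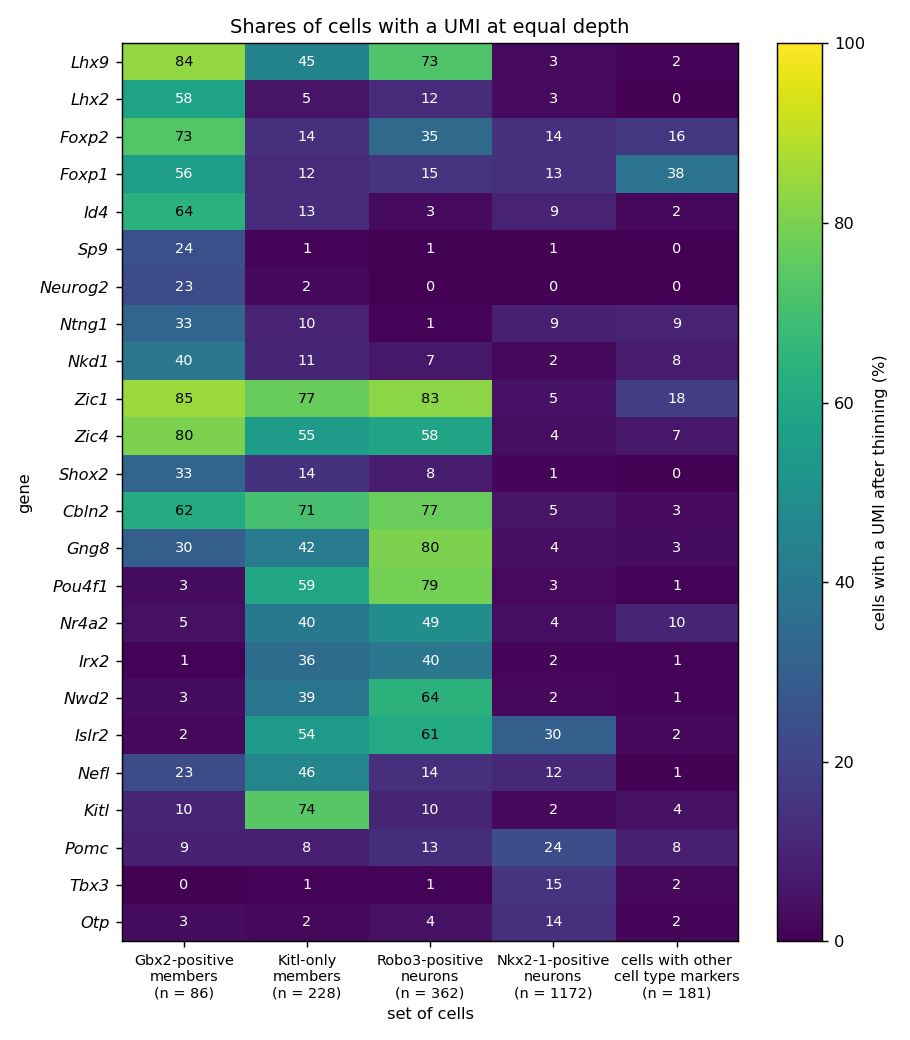
Share of cells with at least 1 UMI after every cell was thinned to 2167 UMIs, in percent, for 24 genes (rows) in 5 sets of cells (columns, with the number of cells deep enough). Foxp2 stands at 73% in the Gbx2-positive and 14% in the Kitl-only members, and Pou4f1 at 3% and 59%; the Robo3-positive neurons hold Pou4f1 in 79%.

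Genes other than Gbx2 and Kitl paired in the same way within the members, which both gate genes had chosen. At equal depth Lhx2 and Foxp2 met in 41 of 314 members against 18.8 expected (ratio 2.19, 1.57 to 2.97), and Pou4f1 and Nr4a2 in 73 against 41.9 (1.74, 1.37 to 2.19). Lhx2 and Pou4f1 met in 8 against 27.1 (0.30, 0.13 to 0.58), and Sp9 and Pou4f1 in 0 against 10.0, for which the interval reached 0.37. Of the 324 members, 93 (28.7%) had Lhx2 or Foxp2 without Pou4f1 or Nr4a2, 123 (38.0%) the reverse, 53 (16.4%) a gene of each pair and 55 (17.0%) none. For these classes 1 UMI was enough and cells were not thinned, and Foxp2 and Nr4a2 UMIs were also found in vessel- or fibroblast-marked cells. Among Gbx2-positive members the first class held 78 of 89 cells, and among Kitl-only members the second held 122 of 235. A gene of each pair was in 202 of the 366 Robo3-positive neurons (55.2%), in 140 of the 557 neurons that lacked only Gbx2 and Kitl (25.1%) and in 32 of the 1244 Nkx2-1-positive neurons (2.57%).

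**Figure D5:**
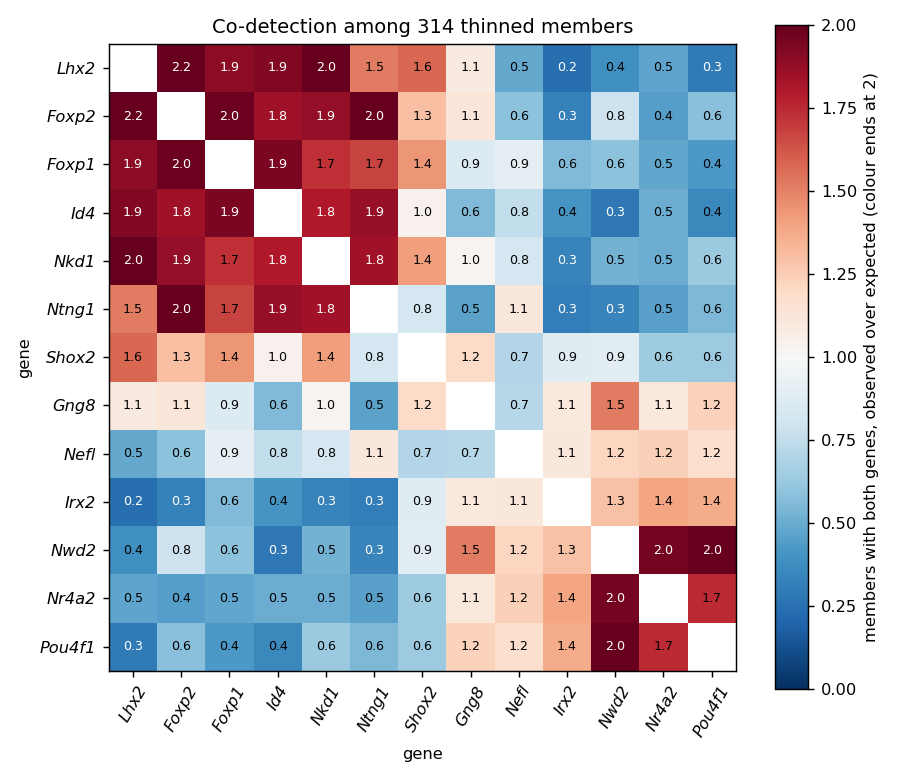
Observed over expected number of members with UMIs of both genes, the expectation being the product of the single shares, for pairs of 13 genes in 314 members thinned to equal depth; red is more and blue fewer than expected, with colour ending at 2. Lhx2, Foxp2, Foxp1, Id4, Nkd1 and Ntng1 form one red block and Nwd2, Nr4a2 and Pou4f1 another, with Lhx2 and Pou4f1 at 0.30 between them.

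Unevenness among members after thinning was ranked over genes with a UMI in 10% to 90% of them. Gate, mitochondrial, ribosomal protein and haemoglobin genes were left out. The most uneven of these genes were Ptn, a heparin-binding growth factor, with a variance of 8.26 times its mean, Pcp4 (7.49), Fabp7 of radial glia (7.14), Mt3 (6.04), Sncg (4.74), Necab2 (4.45), Nwd2 (4.40), Calb2 (4.38), Xist (3.51) and Dbi (3.50), against a median of 1.02 over 3019 genes. Ptn was in 85.4% of Gbx2-positive and 45.1% of Kitl-only members (log2 ratio 1.20), whereas Pcp4, Necab2 and Nwd2 lay on the Kitl side, with log2 ratios of -1.67, -4.13 and -4.15. Xist, the RNA of the inactive X chromosome, was alike in both (-0.07, -0.24 to 0.09) and in 58.6% of members against 79.0% of the other neurons, from a pool whose embryos cannot be told apart. Fabp7 was at 192 CPM in the members and 74.5 CPM in the other neurons, in 17.6% and 10.9% of cells.

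The Kitl-only members were themselves of more than one content. Those with Pou4f1, 161 cells, and those without, 74 cells, had nearly the same Kitl level, at 614 and 584 CPM, and the same Nefl level, at 368 and 389 CPM. Nwd2 was at 934 and 24.7 CPM (log2 ratio 5.24, 4.25 to 6.46), Nr4a2 at 497 and 49.5 CPM (3.33, 2.61 to 4.15) and Cbln2 at 1319 and 402 CPM (1.72). The cells without Pou4f1 were higher in Six3 (-3.54, -5.09 to -2.25), Six6 (-2.91), Sox2 (-2.10) and Fabp7 (-1.27), of which Six6 is on the arcuate and ventromedial hypothalamic list and Sox2 and Fabp7 on the progenitor list, while Pomc was at 0.59. Other lists moved with this split: in the cells with and without Pou4f1, cycling markers summed to 41.3 and 284 CPM, endothelial and mural markers to 21.3 and 71.1 CPM and the genes that chose the vessel- or fibroblast-marked cells to 31.98 and 71.1 CPM, and the median mitochondrial shares were 3.92% and 4.67%. Progenitor markers summed to 378 and 1066 CPM, all 4 compared being lower with Pou4f1, and the arcuate and ventromedial hypothalamic list to 97.3 and 260 CPM. The oligodendrocyte and astrocyte list summed to 41.3 and 68.0 CPM, with Slc1a3 at -1.51. Pituitary (68.0 and 61.8 CPM) and fibroblast (22.7 and 9.27 CPM) lists went the other way. Over 5911 genes, 299 (5.06%) were over 2-fold higher with Pou4f1 and 204 (3.45%) lower, with a median of 0.03. At least 5 UMIs of the neural progenitor list were found in 19 of 235 Kitl-only members (8.09%), in 1 of 89 Gbx2-positive members (1.12%) and in 7.14% of the other neurons. The part of these lists, of doublets and of free RNA in the ratios was not tested.

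Habenular genes were also found in the 366 Robo3-positive neurons, which the gate leaves out. Pou4f1 was in 85.8% of them and 68.5% of the Kitl-only members, and Gng8 in 86.3% and 49.8% (log2 ratios -0.72 and -1.18), and the 2 sets were near each other in Zic1 (-0.04), Zic4 (0.00), Cbln2 (-0.11) and Slc17a6 (0.02). Of 5758 genes compared, 199 (3.46%) were over 2-fold higher in the Kitl-only members and 121 (2.1%) lower, with a median of 0.04. The Kitl-only members, chosen on Kitl, were higher in Chrm3 (3.16), the IGF-binding Igfbp5 (3.07), Ntng1 (2.99), Fabp7 (2.85), Epha4 (2.75), Mast4 (2.32) and Nefl (374 against 87.4 CPM). Other lists moved with this comparison: progenitor markers summed to 586 against 221 CPM, cycling markers to 115 against 38.7, glial markers to 49.4 against 5.34, and endothelial and mural markers to 36.3 against 15.4, and their part in the ratios was not tested. The Robo3-positive neurons were higher in Lmo1 (-4.68), the ETS factor Etv1 (-3.73), Neurod6 (-5.77, -11.1 to -3.25), Pou3f1 (-3.44), Synpr (-3.00), the cannabinoid receptor Cnr1 (-2.85), Lef1 (-2.84), Neurod1 (-2.60) and Tac1, the substance P precursor gene (-2.05). They were also over 2-fold higher in the thalamic genes Lhx9 (-1.04), Lhx2 (-1.16, -1.76 to -0.59) and Foxp2 (-1.15), so that of 7 thalamic genes compared 4 were lower and 2, Ntng1 and Calb2, higher in the Kitl-only members. All 3 neuropeptide genes compared, Tac1, Cartpt and Pomc, were lower in the Kitl-only members, and 2 of 4 habenular genes, Gng8 and Chrna3.

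The neurons nearest to the gate were the 557 that met its other limits but had no UMI of Gbx2 or Kitl. They were near the members in Pou4f1 (in 51.0% of them and 51.2% of members, log2 ratio of members to them -0.10, -0.22 to 0.03) and in Lhx9 (0.10, -0.04 to 0.24), and their Tcf7l2 level was 2435 CPM. Of 5466 genes, 70 (1.28%) were over 2-fold higher in the members and 52 (0.951%) lower, with a median of 0.03. The members were higher in Pdzrn4 (3.07), Brinp2 (2.82), Id4 (2.76), Sp9 (2.50), Mast4 (2.39), Igfbp5 (2.17) and Dlgap1 of the postsynaptic density (2.12). They were lower in Sox14 (-5.13, -8.19 to -3.24), Lmo1 (-3.08) and the homeodomain genes Otx2 (-2.10, -3.22 to -1.13) and Otx1 (-2.03). Pdzrn4, Id4 and Sp9 were highest in the Gbx2-positive members, and Brinp2, Mast4, Igfbp5 and Dlgap1 in the Kitl-only ones.

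Of the Wnt pathway genes compared over all members, which leave out Tcf7l2 as a gate gene, only Nkd1 passed 2-fold. Of 7 TCF/LEF factors and co-factors compared, none was over 2-fold higher or lower (median 0.19), with Ctnnb1, the beta-catenin gene, at 0.64 and the co-repressor Tle4 at -0.72. Tcf7 had no UMI in the members (limit 0.926% of cells) and Tcf7l1 was in 1.23% of them, against 4.57% and 15.2% of the vessel- or fibroblast-marked cells. Of 3 Wnt target genes compared, Nkd1 was at 2.37 and Axin2 at 0.87. Between Gbx2-positive and Kitl-only members, Lef1 and the co-repressor Tle1 (1.34) were over 2-fold higher with Gbx2, and Axin2 was not (0.36, -0.86 to 1.46). The receptor gene Lgr4 was lower, at -2.31 (-5.41 to -0.34).

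Few genes of neighbouring regions or of early stages reached the minimum for comparison. The prethalamic list had 2 of 14 genes compared, Sp9 (1.96) and Isl1, and the rostral thalamic GABA neuron list 2 of 6, Sox14 and Six3, both lower. At least 5 UMIs of the prethalamic list were in 1.54% of members and 12.3% of the other neurons. No gene of the subthalamic and posterior hypothalamic or of the monoamine and acetylcholine list reached the minimum. Among precursor genes Neurog2 was higher, Gadd45g lower (-1.17) and Hes6 near 0 (0.08), although Hes6 was higher in Gbx2-positive than in Kitl-only members (1.36). Progenitor genes divided, with Fabp7 higher (1.37) and Sox2 lower (-1.92), and at least 5 UMIs of cycling genes were found in 4 of 324 members (1.23%) and 0.706% of the other neurons. Progenitor, precursor and cycling lists summed to 523, 239 and 104 CPM in the members and 435, 234 and 82.2 CPM in the other neurons.

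Between Gbx2-positive and Kitl-only members, 3 of 12 cadherins and 9 of 13 synapse organisers could be compared. Of the cadherins, Cdh8 (-2.17, -4.09 to -0.74) and Cdh11 (-2.39, -5.50 to -0.43) were lower with Gbx2, and of the synapse organisers Cbln1 (-3.22) and Nrxn3 (-1.10) were lower and Lrrtm3 higher (2.58), beside 10.5% lower and 4.53% higher over all genes. The Iroquois genes Irx1 (-3.72, -6.79 to -1.83), Irx3 (-2.05) and Irx5 (-2.30) had the sign of Irx2. Zic2 (1.80) and Zic5 (2.03) were on the Gbx2 side, beside the LIM-only gene Lmo4 (1.53).

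Markers of cell types outside the neuronal lineage were scarce. No gene of the pituitary, fibroblast, endothelial and mural, macrophage or oligodendrocyte and astrocyte lists reached the minimum for comparison in the members. Summed levels were 51.6, 15.8, 29.4, 6.44 and 38.7 CPM in the members, against 72.6, 35.3, 25.04, 15.7 and 13.7 CPM in the other neurons. In the Kitl-only members the glial list summed to 49.4 CPM and in the Gbx2-positive ones to 3.10 CPM, and the pituitary list to 66.1 and 3.10 CPM. Progenitor and cycling lists summed to 586 and 115 CPM in the Kitl-only and 313 and 68.2 CPM in the Gbx2-positive members, while the precursor list went the other way (172 and 462 CPM). The part of these lists in the ratios between the 2 sets was not tested. The erythroid genes summed to 258 and 269 CPM, with a list median of -0.06, and the endothelial gene Cldn5 had no UMI in any member.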

How the data were processed

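The authors deposited raw UMI counts per gene symbol and barcode in 1 table, made with Cell Ranger 2.1.1 and STAR 2.4.0 on mm10, without normalization, per the labels. The methods' limits were applied here: 200 to 4500 genes, at most 10% mitochondrial UMIs and at most 10 Hba-a1 UMIs, leaving 6351 of 6465 barcodes, with a median of 3338 UMIs. The study analysed fewer cells than its stated limits leave here. The 4 runs were treated as 1 library, since barcodes carry neither run nor embryo. No doublet caller was run.

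Counts were pooled per set as CPM with exact Poisson intervals, shares given with Clopper-Pearson intervals, and log2 ratios with conditional exact binomial intervals. Cells were thinned to 2167 UMIs, the 10th percentile (seed 1). Co-detection is observed over expected cells with a Poisson interval. A level of 0 is limited by 3 counts. Intervals cover counting error only, and nothing was tested between groups. The ratio was tested on simulated data. Software was scipy 1.17.1, numpy 2.4.6 and pandas 2.3.3 under Python 3.11.15, with plots by matplotlib 3.10.9.

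Members, lists and rules were chosen with earlier results of these data known. Genes named were those of the gate, the lists, the 20 highest and 12 lowest by log2 ratio and the 10 most variable. The comparisons of Gbx2-positive with Kitl-only members, of members with Tcf7l2-positive neurons lacking both genes, of Kitl-only members with Robo3-positive neurons and of Kitl-only members by Pou4f1, and the genes leading them, were chosen after seeing the data. Gene positions came from GENCODE vM21 and upstream sequences from RefSeq, both on GRCm38.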

Additional observations from a re-analysis of the deposited data

How the results depend on the processing

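The gate set the number of members. It was 211 (5.27% of neurons) with at least 2 UMIs of Gbx2 and Kitl and 200 (5.81%) on thinned counts, and the share was 9.36% with Tcf7l2 from 1, 7.24% with Tcf7l2 from 3, 9.46% with up to 1 UMI of Robo3 and Nkx2-1 and 10.01% with no such limit. Genes over 2-fold higher and lower numbered 208 and 172 against all other kept cells, 1230 and 2229 with more than 3 cells as the only minimum, 74 and 27 with 50 UMIs and 20% of cells, 345 and 191 at 1.5-fold and 45 and 28 at 3-fold. On thinned counts 43 were lower. With at least 2 UMIs, Lhx9 was in 50% and Pou4f1 in 41.7% of members. Co-detection of Lhx2 and Pou4f1 was 0.54 on raw and 0.30 on thinned counts.

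Over 45 named genes and 14 settings, 0 of 630 log2 ratios changed sign and 131 left the interval first given. Settings for the Gbx2-positive and Kitl-only members were chosen after seeing the data: of 120 ratios of 20 genes, 1 changed sign, Slc17a6 at -0.21 without the deepest 10% of members, and 23 left the interval. On thinned counts 316 genes rather than 612 were lower with Gbx2, and with a Kitl UMI asked of both sets, which left 13 against 235 cells, 663 were higher and 1291 lower, Lhx2 was at 2.67 and Nwd2 at -1.88. With Tcf7l2 of at least 7 in both sets, Lhx2 was at 3.94 and Pou4f1 at -4.73. With 1 library, the spread between embryos is unknown, and a median of 3338 UMIs per cell hides genes of few transcripts. No paired analysis was possible because the runs of 1 library share all cells and no test was made.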
